A study of Bos taurus with 6 samples.

Results

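The EGR and NR4A families of immediate-early transcription factors, with the EGR corepressor NAB2, were followed in bovine cumulus cells over the opening hours of in vitro maturation. The genes were chosen by platform symbol: EGR1, EGR2, EGR3, EGR4, NR4A1, NR4A2, NR4A3 and NAB2, 8 genes in all, against 15216 genes with a named probe on the array. Of these 8, 7 had a probe, 1 each, and 4 were bright enough to be tested, among 9217 genes tested in the series. No probe carried the symbol EGR2, so EGR2 was not analysed here. Cumulus cells are the somatic cells that surround the oocyte and are shed with it at ovulation.

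Each array compared cumulus cells after 6 h of maturation with cells taken from complexes before maturation (0 h). There were 3 biological replicates, each hybridised on 2 arrays with Cy3 and Cy5 exchanged, for 6 arrays. Both groups came from Holstein ovaries collected at a slaughterhouse, and complexes with 5 or more cumulus layers were used. The 6 h group was matured in groups of at most 10 complexes in TCM-199 with 10% serum, estradiol at 1 µg/ml, pyruvate at 0.33 mM and gentamicin, at 38.5 °C in 5% CO2 and 20% O2, and the labels name no gonadotropin in that medium. Cells of the 0 h group were detached mechanically, and the labels do not say how the 6 h cells were detached. RNA of both groups was amplified linearly before chemical labelling. The labels do not state how many animals stood behind a replicate, so the p-values below refer to these 3 replicates only. They also draw on the variance of all tested genes, so they do not measure a gene's own spread alone.

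EGR proteins are zinc-finger factors that bind GC-rich DNA. NR4A proteins are orphan nuclear receptors that act without a known physiological ligand. Genes of both families are switched on within minutes of a stimulus, without new protein synthesis, through SRF with its ternary complex factors and through CREB, and their short-lived transcripts are soon lost again. NAB2 and its relative NAB1 bind EGR proteins and repress them, and EGR proteins in turn activate the NAB2 gene. In the rodent ovary, both families are known as rapid targets of the gonadotropin surge in granulosa cells.

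Per array, between 51.3% and 84.3% of probes were above background at 0 h and between 41.3% and 79.9% at 6 h. The background threshold of a channel was set 2 SD above the mean of its 153 negative controls. The number of arrays limits the precision, and in a bulk sample fewer cells of a type and less RNA per cell cannot be told apart. Of 15 cumulus and granulosa markers, 14 were tested, and their summed level lay between 198038 and 204353 at 0 h and between 185785 and 199745 at 6 h. Of these 14, 6 were called lower and 1 higher at 6 h, with a median log2 ratio of -0.61. Among all tested genes, 18.0% were called lower and 17.2% higher. FOXL2, a defining factor of the granulosa lineage, passed the threshold on 4 arrays with 0 h RNA and 2 with 6 h RNA and was not tested. Oocyte markers were measured too, with 11 of 20 tested, of which ZP3, ZP4, GDF9 and DPPA3 are examples. Their summed level was 1889, 1833 and 19514 at 0 h and 6543, 3331 and 7668 at 6 h in replicates 1, 2 and 3, so the 0 h RNA of replicate 3 stood apart. Of 8 endothelial markers 1 was tested and of 6 erythrocyte markers 3, with 0 called. Of 10 leukocyte markers 3 were tested and 1, CD68, was called higher at 6 h, at a log2 ratio of 1.27 (named after its value was seen). Of 11 theca and stroma markers 7 were tested and 4 were called higher. Of these, DCN (named after its value was seen) passed the threshold on 2 of 6 arrays with 0 h RNA. It was tested through its 6 h signal alone. The part of other cell types in the results below was not tested.

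At 0 h the transcripts of EGR1 and NR4A1 were strongly detected, while the probes of EGR3, EGR4, NR4A2, NR4A3 and NAB2 lay near the background threshold at both times. By 6 h, EGR1 had fallen 6.86-fold and NR4A1 4.40-fold on average. Neither NR4A2 nor NAB2 passed the test. The unadjusted limma p of NR4A2 was 0.0302, where 45.4% of all tested genes had an unadjusted p under 0.05. Thus 2 of the 4 tested genes were called lower and 0 higher, where 18.0% of all tested genes were called lower and 17.2% higher (35.2% in either direction; limma's moderated test, Benjamini-Hochberg adjusted p under 0.05).

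**Figure D1:**
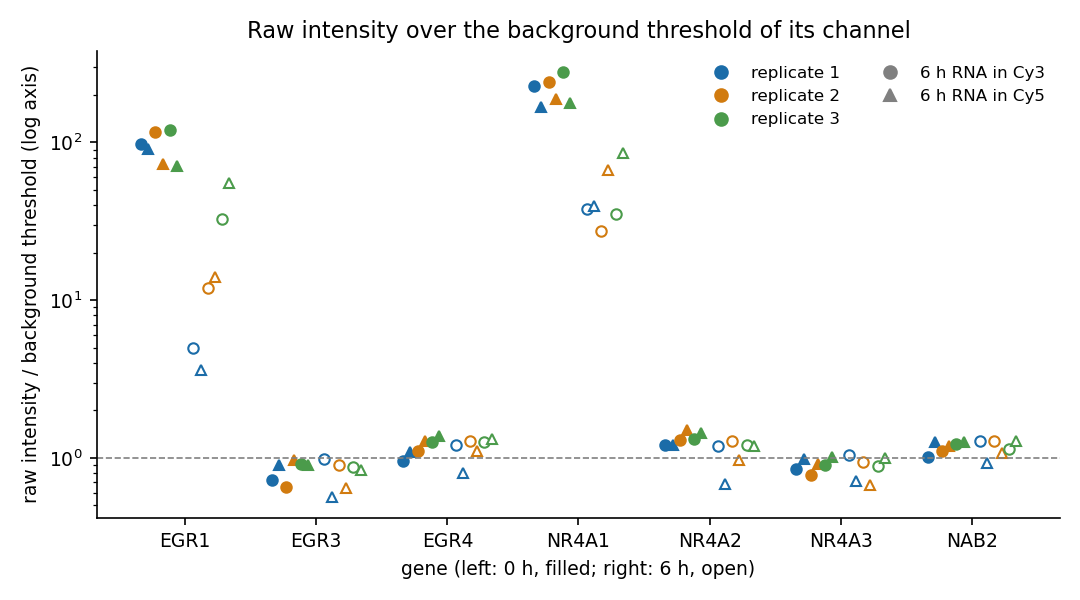
Raw spot intensity divided by the background threshold of its channel (log axis, no unit) for the 7 genes with a probe, at 0 h (filled) and 6 h (open), on each of the 6 arrays. Colours mark replicates, circles arrays with the 6 h RNA in Cy3 and triangles arrays with it in Cy5. EGR1 and NR4A1 stood at 70.8 to 279 times the threshold at 0 h, and the other 5 genes stood at 0.569 to 1.51 times it at both times.

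EGR1, the best-studied member of its family, drives growth-factor responses in many cell types and takes part in the granulosa response to luteinising hormone in rodents. Its probe EMBV3_11644 was above background on 6 of 6 arrays at both times. In replicate 1 the log2 ratio of 6 h over 0 h was -4.54 and -4.65 on its 2 arrays, in replicate 2 it was -3.04 and -2.62, and in replicate 3 it was -1.12 and -0.69. EGR1 was lower at 6 h on 6 of 6 arrays, and the arrays of a dye swap lay closer to each other than to any other replicate.

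The mean log2 ratio of EGR1 was -2.78 ± 1.85 (SD, n = 3; 95% confidence interval -4.45 to -1.11; limma adjusted p = 0.0273). This placed EGR1 9th from the lowest ratio of all genes tested. By replicate the fall was 24.2-fold in replicate 1, 7.13-fold in replicate 2 and 1.87-fold in replicate 3. Few tested genes varied as much between replicates: the SD of EGR1 was at the 99.9th percentile. The median SD of called genes was 0.22 on the same log2 scale. The interval and p-value of EGR1 rest on a moderated standard error of 0.66. It is smaller than the 3 EGR1 replicates alone would give, because limma draws variances toward those of other genes.

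**Figure D2:**
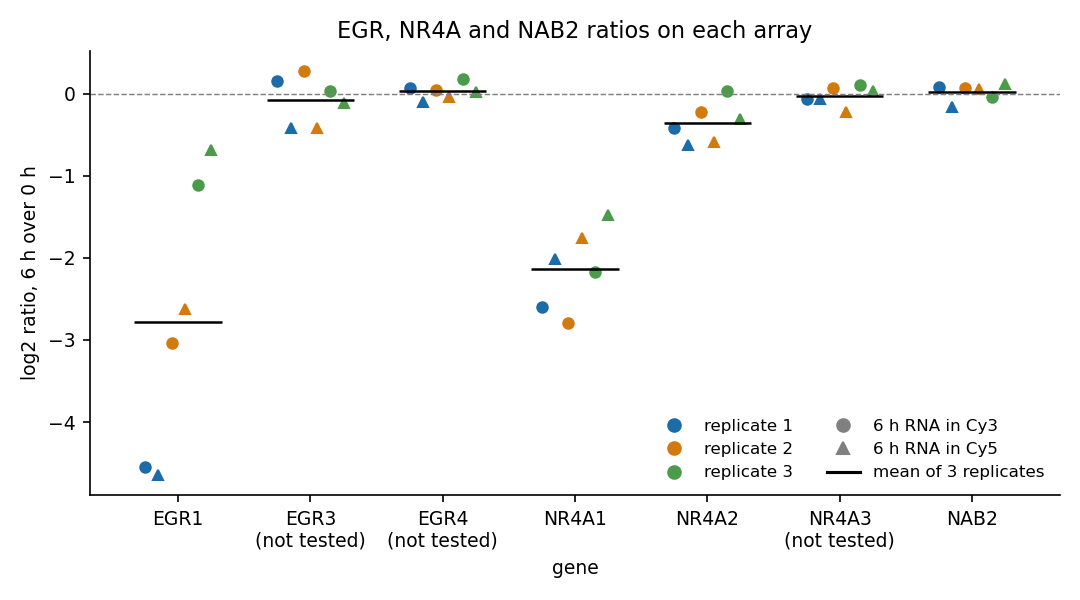
Log2 ratio of 6 h over 0 h on each of the 6 arrays for the 7 genes with a probe; horizontal bars are means of 3 replicates. All 6 points lie below 0 for EGR1 and for NR4A1, the EGR1 points spread from -4.65 to -0.69 and those of NR4A1 from -2.80 to -1.48.

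The spread of EGR1 lay at 6 h. Its log2 level (after loess and scaling between arrays) was 14.27, 14.02 and 13.79 at 0 h in replicates 1, 2 and 3, an SD of 0.24. At 6 h the level was 9.68, 11.18 and 12.89, an SD of 1.61. The 0 h and 6 h levels did not overlap. Ranked among tested genes, the SD of EGR1 was at percentile 63.9 at 0 h and at percentile 99.1 at 6 h.

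The raw intensities of EGR1 gave the same picture before any scaling. At 0 h the spot means ran from 14308 to 20986 over the 6 arrays. At 6 h they were 850 and 856 in replicate 1, 2189 and 2400 in replicate 2, and 7153 and 7942 in replicate 3. The dimmest of these was still 3.63 times the background threshold, so background did not bound the ratio on any array. No EGR1 spot median exceeded 39.6% of the scanner's ceiling, and clipping of single pixels was not examined.

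Replicate 3, where EGR1 fell least, was also where the oocyte markers went the other way. The median log2 ratio of the 11 tested oocyte markers was 1.99, 1.09 and -1.19 in replicates 1, 2 and 3. Of these 11, 4 were above background on all 6 arrays at 0 h and 10 at 6 h. The filter therefore partly sets the positive medians. Replicate 3 stood apart in summed oocyte level at 0 h (19514, against 1889 and 1833), where EGR1 levels had an SD of 0.24. At 6 h, where EGR1 rose from 9.68 to 11.18 and 12.89 over replicates 1, 2 and 3, that sum was 6543, 3331 and 7668. The part of oocyte RNA in the EGR1 ratio was not tested. Without replicate 3 the log2 ratio of EGR1 was -3.71 (limma adjusted p = 0.0124), and without replicate 1 it was -1.87 (adjusted p = 0.0220). The call was lost without replicate 2 (-2.75, adjusted p = 0.0657) and where probes were tested without the brightness filter (-2.78, adjusted p = 0.0624).

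**Figure D3:**
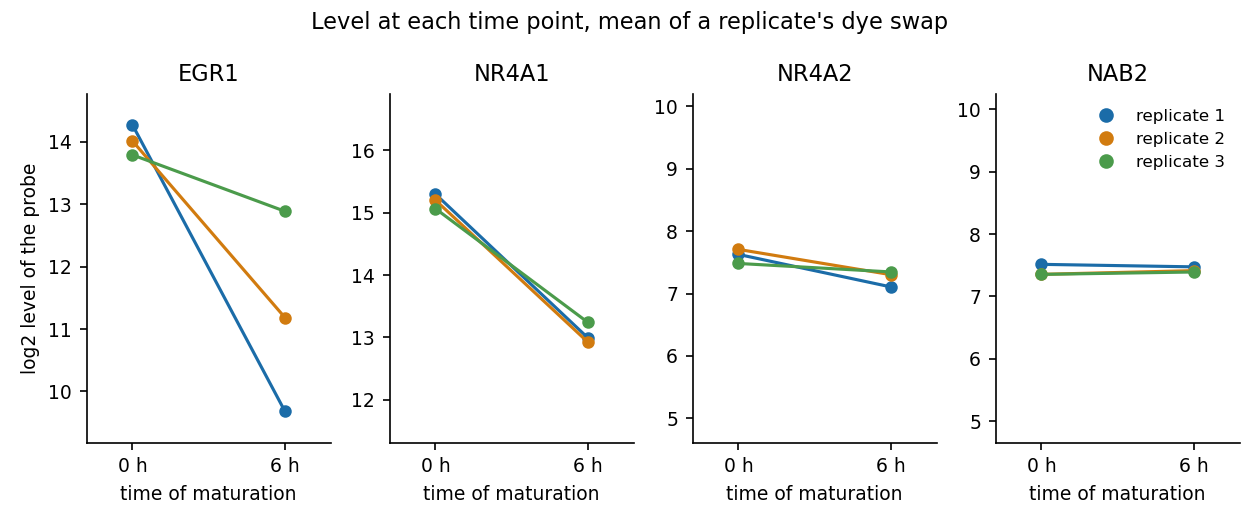
Log2 level of each tested probe at 0 h and 6 h, 1 line per replicate (mean of its dye swap); all panels span the same number of log2 units, and levels of different probes are not comparable. EGR1 starts within 13.79 to 14.27 and ends between 9.68 and 12.89, whereas the NR4A1 lines end between 12.92 and 13.24.

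EGR3 and EGR4, which share the zinc-finger domain of EGR1 and are best known in muscle spindles, lymphocytes and nerve cells, were dim here. EGR3 (probe EMBV3_11270) was above background on 0 of 6 arrays at 0 h and on 0 of 6 at 6 h, with raw intensities between 105 and 209. Its log2 ratio of -0.08 ± 0.04 (SD, n = 3) therefore compares values not above background. EGR4 (EMBV3_07793) was above background on 5 arrays at each time, and both failing arrays belonged to replicate 1. Its log2 ratio was 0.02 ± 0.06 (SD, n = 3), with replicate values of -0.021, -0.0021 and 0.097. EGR3 and EGR4 were not tested, because neither was above background on every array of a time point.

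NR4A1, also called NUR77, is induced by luteinising hormone and cAMP in steroidogenic cells and regulates steroidogenic genes there. Its probe EMBV3_07255 was bright at 0 h, with raw spot means of 36109 to 41138, and had fallen to 5054 to 12219 at 6 h. The log2 ratio was -2.60 and -2.02 on the arrays of replicate 1, -2.80 and -1.76 in replicate 2, and -2.17 and -1.48 in replicate 3. NR4A1 was lower at 6 h on 6 of 6 arrays, and the 0 h and 6 h intensities did not overlap.

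NR4A1 had a mean log2 ratio of -2.14 ± 0.27 (SD, n = 3; 95% confidence interval -2.48 to -1.79; limma adjusted p = 0.00132). As measured, it was 4.95-fold, 4.85-fold and 3.54-fold lower at 6 h in replicates 1, 2 and 3. These folds are lower bounds wherever pixels of the 0 h spot were clipped at the scanner's ceiling, as described next. Its log2 level was 15.30, 15.20 and 15.06 at 0 h and 12.99, 12.92 and 13.24 at 6 h. The SD of its level was 0.17 at 6 h. At 0 h it was 0.12, a value that the scanner's ceiling limits and that says nothing of how even the replicates were before culture.

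Saturation and dye touched the NR4A1 ratio. At 0 h the median pixel of its spot was at 80.0% to 100% of the scanner's ceiling of 65535, and it reached the ceiling on 1 array, the replicate 1 array with 0 h RNA in Cy5. With saturated spots left out, the log2 ratio was -2.03 (adjusted p = 0.00110), with replicate 1 then resting on its array with 6 h RNA in Cy5 and its dye swap no longer balanced. With spot medians in place of spot means, an alternative chosen after seeing the data, it was -2.44 (adjusted p = 0.000281). The ratio averaged -2.52 with the 6 h RNA in Cy3 and -1.75 with it in Cy5, a difference of 0.77, against a median absolute difference of 0.18 over tested genes. That difference was at percentile 98.2. Averaging each dye swap balances a dye effect of opposite sign on its 2 arrays, but not a loss at the scanner's ceiling that both share. The part of saturation in the dye difference was not tested.

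NR4A2, or NURR1, a relative that binds the same DNA element and is known for its role in dopamine neurons, was dim. Its probe EMBV3_12151 passed the threshold on 6 arrays with 0 h RNA, at 1.33 times it on average, and on 4 with 6 h RNA, at 1.09 times. The log2 ratio was -0.42 and -0.63 in replicate 1, -0.22 and -0.59 in replicate 2, and 0.03 and -0.31 in replicate 3. The replicate means were -0.52, -0.41 and -0.14, and 5 of 6 arrays lay below 0. NR4A2 entered the test through its 0 h signal alone, where it was brighter, so this direction is partly set by the filter, and a filter on both times left it untested.

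The mean log2 ratio of NR4A2, -0.35 ± 0.20 (SD, n = 3), did not pass the test (limma adjusted p = 0.0747; unadjusted 95% confidence interval -0.66 to -0.05). A probe this close to background cannot show a large fall. NR4A2 passed with arrays fitted one by one and the replicate as a random block (limma adjusted p = 0.0371). That fit gave a correlation of -0.49 between arrays of a replicate, and a negative value makes its p-values smaller. NR4A2 also passed on the arrays with 6 h RNA in Cy5 taken alone (-0.51, adjusted p = 0.0411), but not on those with it in Cy3 (-0.20, adjusted p = 0.316).

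NR4A3, or NOR1, completes the family. Its probe EMBV3_17732 passed the threshold on 1 array with 0 h RNA and 2 with 6 h RNA, with raw intensities of 116 to 228, and was not tested. Its log2 ratio was -0.07, -0.08 and 0.07 in replicates 1, 2 and 3, a mean of -0.03 ± 0.08 (SD, n = 3) between values near or not above background. With no brightness filter, limma gave adjusted p = 0.534 for EGR3, 0.882 for EGR4 and 0.880 for NR4A3. No difference in EGR3, EGR4 or NR4A3 was thus detected, and probes this close to background cannot show a large fall.

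NAB2, the corepressor, passed the threshold on 6 arrays with 0 h RNA and 5 with 6 h RNA (probe EMBV3_19508), with raw intensities between 166 and 292. Its log2 ratio was 0.08 and -0.16 in replicate 1, 0.06 and 0.06 in replicate 2, and -0.04 and 0.12 in replicate 3. The arrays fell on both sides of 0, with 2 lower and 4 higher. The mean of 0.02 ± 0.05 (SD, n = 3) did not pass the test (limma adjusted p = 0.907), and its 95% confidence interval ran from -0.23 to 0.27. The dim signal, at 1.17 times the threshold at both times, limits what this interval can show.

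For each tested gene, the 3 genes with the most similar ratios over the 6 arrays were taken, by the root mean square difference of log2 ratio. The nearest to EGR1 were the histone gene H2AC25 (difference 0.43), ATF3 (0.51) and FOS (0.60), and the last 2 are themselves immediate-early transcription factors. The replicate log2 ratios of ATF3 were -4.13, -2.90 and -1.57, with a mean of -2.86 ± 1.28 (SD, n = 3; limma adjusted p = 0.00898). FOS had -4.07, -3.16 and -1.66, and a mean of -2.96 ± 1.22 (adjusted p = 0.00708). H2AC25 had -4.04, -2.63 and -1.31, and a mean of -2.66 ± 1.36 (adjusted p = 0.0128).

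The log2 level of FOS was 11.09, 12.07 and 13.45 at 6 h, an SD of 1.19. At 0 h it was 15.16, 15.23 and 15.11, but the brightest FOS probe was saturated on 1 array at 0 h, so that spread is limited by the scanner. ATF3 varied at both times, with SDs of 0.52 at 0 h and 0.95 at 6 h. A further FOS probe had a mean log2 ratio of -0.93.

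NR4A1 had other neighbours. They were RECQL, which encodes a DNA helicase (difference 0.28, log2 ratio -1.95), KRT2, a keratin gene (0.30, -2.11), and TATDN1, a putative nuclease gene (0.31, -2.05), all called lower. Their replicate ratios lay between -2.40 and -1.52, and a further TATDN1 probe had a mean of -0.78. NR4A2 was nearest to TCF7L2, MAPK8IP1 and EXOC6, with differences of 0.09 to 0.11 and log2 ratios of -0.36 to -0.33, none of them called. The TCF7L2 probe used passed the threshold on 4 of 6 arrays with 6 h RNA, and its other probes had mean ratios of -0.05 and 0.09. NAB2 was nearest to NDUFA6, ADAMTS4 and DIPK2B, whose log2 ratios lay between -0.018 and 0.0036, again with none called. These neighbours are a description over 6 arrays that share 3 replicates, and a likeness in the order of replicates follows from how they were chosen.

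**Figure D4:**
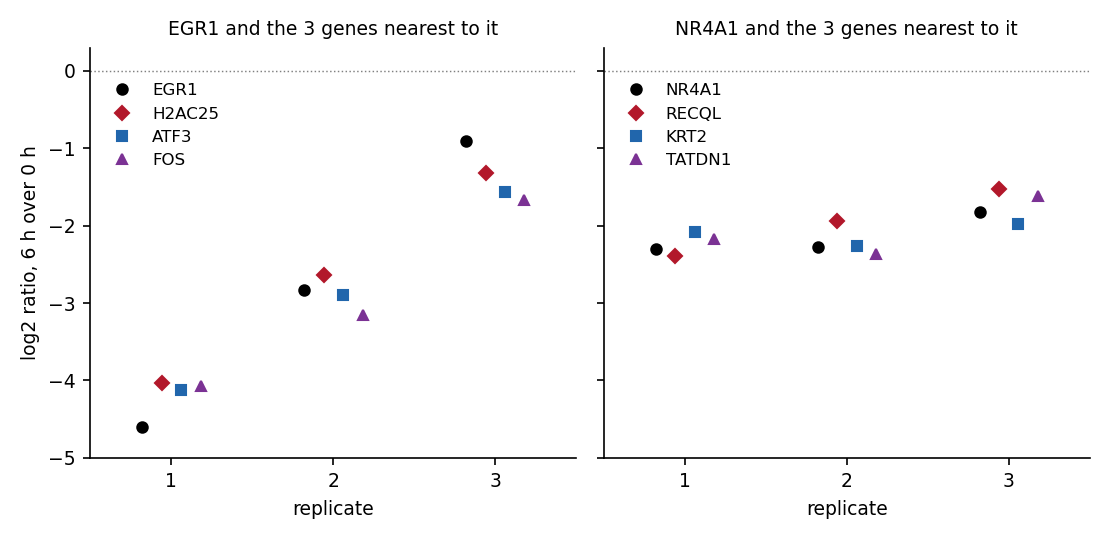
Log2 ratio of 6 h over 0 h in each replicate (mean of its dye swap) for EGR1 and NR4A1 and the 3 tested genes nearest to each over the 6 arrays. EGR1, H2AC25, ATF3 and FOS range from -4.60 to -0.90 and lie lowest in replicate 1, and the NR4A1 group stays between -2.40 and -1.52.

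Other immediate-early genes moved mostly in the direction of EGR1 and NR4A1. Of 46 listed, 43 had a probe and 36 were tested, and 22 of these were called lower and 3 higher, against backgrounds of 18.0% and 17.2%. The median log2 ratio of the 36 was -1.15, where the median of all tested genes was -0.02, and by replicate it was -1.56, -1.41 and -0.75. The 4 with the smallest p were DUSP6, DUSP1, FOSB and FOSL1. DUSP6, a phosphatase that inactivates ERK, had a log2 ratio of -1.92 ± 0.17 (SD, n = 3; limma adjusted p = 0.00109).

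DUSP1, a phosphatase of the MAP kinases p38 and JNK, fell 11.2-fold, with replicate log2 ratios of -3.87, -3.76 and -2.84. FOSB, an AP-1 subunit, fell 11.6-fold, with -3.98, -3.78 and -2.86, and its other probes had mean log2 ratios of -3.19 and -0.63. With an intensity trend in the variance, both lost their calls (limma adjusted p = 0.121 for DUSP1 and 0.139 for FOSB). The 3 that rose were FOSL1, SGK1 and GADD45A, the last 2 named after their values were seen. FOSL1, the AP-1 subunit FRA1, rose 5.68-fold with replicate log2 ratios of 2.60, 2.06 and 2.86. SGK1, a serum- and glucocorticoid-inducible kinase, had a log2 ratio of 1.39, and GADD45A, a growth arrest gene, had 1.17.

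The order of replicates seen in EGR1 was counted in these genes after it had been noticed, and no test was made of it. Of the 22 early genes called lower, 12 (54.5%) had their lowest ratio in replicate 1 and their highest in replicate 3, against 423 of all 1658 genes called lower (25.5%). RGS2, an early gene that is not among those called, was named after its values were seen. Its brightest probe had levels of 8.55, 8.02 and 12.08 at 0 h, highest in the replicate 3 RNA that was also high in oocyte markers. The part of oocyte RNA in these levels was not tested.

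Of 27 listed inputs to the EGR and NR4A promoters (SRF and its cofactors, MAP kinases, CREB factors and protein kinase A subunits), 16 were tested, and 0 were called lower and 3 higher, with a median log2 ratio of 0.17. Over all tested genes 18.0% were called lower and 17.2% higher, so the higher count is near the background. At an unadjusted p under 0.05, limma gave 5 of the 16 in either direction, against 45.4% of all tested genes. RPS6KA1, the kinase RSK1 downstream of ERK, rose 8.47-fold, with replicate log2 ratios of 3.38, 3.08 and 2.79 (adjusted p = 0.000820). MAP2K1, the ERK kinase MEK1, had a log2 ratio of 1.44 ± 0.21 (SD, n = 3), and PRKAR1A, a regulatory subunit of protein kinase A, had 0.68 ± 0.15. The PRKAR1A call was lost without replicate 2 (0.60, limma adjusted p = 0.0597). ELK3, a ternary complex factor, had 0.74 and was not called (adjusted p = 0.0529). It passed the threshold on 2 of 6 arrays with 0 h RNA, so it was tested through its 6 h signal alone. SRF, the factor that many early promoters bind, had a log2 ratio of 0.05 and was not called (named after its value was seen).

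Among 14 partners and corepressors, 8 were tested and 0 were called in either direction by limma, with 2 of the 8 at an unadjusted p under 0.05. Over all tested genes the shares were 35.2% and 45.4%. Those 2 genes were NAB1, the other NAB corepressor, at a log2 ratio of 0.41 (adjusted p = 0.0547), and TRIM28, a corepressor of zinc-finger proteins, at -0.40 (adjusted p = 0.0572). The brightest NAB1 probe had replicate ratios of 0.19, 0.61 and 0.42. It passed the threshold on 5 of 6 arrays with 0 h RNA, so it was tested through its 6 h signal alone. The other 2 NAB1 probes had mean ratios of 0.04 and 0.12 and were not tested. CREBBP, a histone acetyltransferase, had -0.35, and NCOA3, a nuclear receptor coactivator, had 0.24. The list's median was 0.00, and without replicate 1 limma called 3 of the 8.

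**Figure D5:**
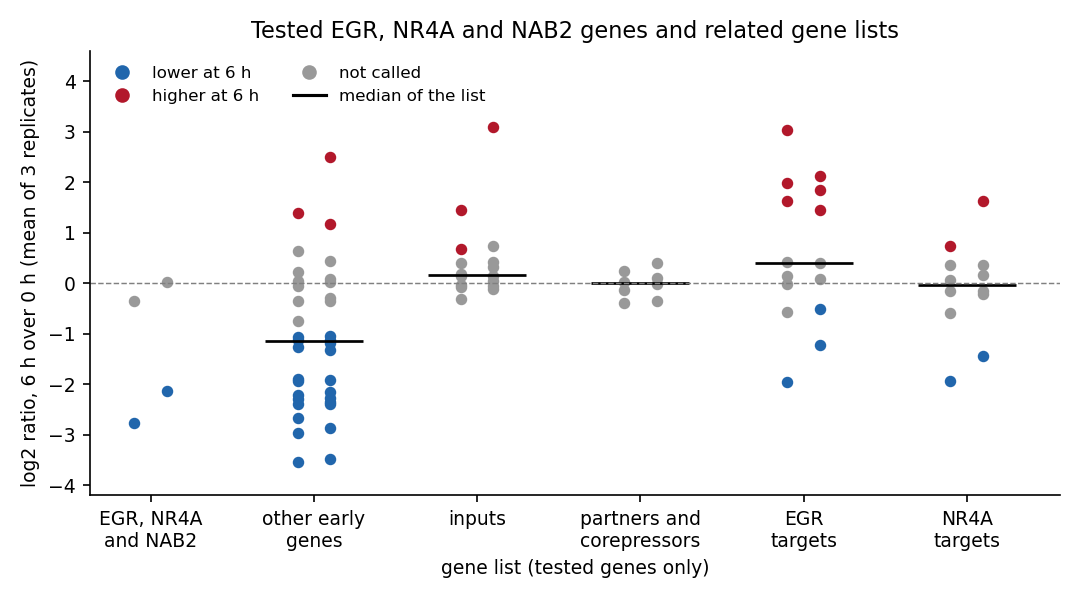
Mean log2 ratio of 6 h over 0 h for the 4 tested EGR, NR4A and NAB2 genes and for the tested genes of 5 related lists, coloured by call (limma adjusted p under 0.05), with the median of each list as a bar. The early genes centre on -1.15, with 22 called lower, and the other lists have medians between -0.04 and 0.41.

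Of 27 genes known as EGR targets in human or rodent cells, 15 were tested, with 3 called lower and 6 higher, and their median log2 ratio was 0.41. The background was 18.0% lower and 17.2% higher, and with a filter on both times 2 were called lower and 5 higher. FGF2, a growth factor, rose 8.15-fold (log2 ratio 3.03 ± 0.22, SD, n = 3; limma adjusted p = 0.000792), and its dimmer probe had 0.78. PDGFB, another growth factor, had a log2 ratio of 1.45, but passed the threshold on 4 of 6 arrays with 0 h RNA and was untested with that filter. SPRY2, an inhibitor of growth factor signalling, had 2.13. HMOX1, haem oxygenase, had -1.96. The other genes called lower, VEGFA (-1.23) and PTGES (-0.51), and the others called higher, F3 (1.98), THBS1 (1.84) and NDRG1 (1.63) were chosen by their values.

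Of 24 genes known as NR4A targets in human or rodent cells, 12 were tested, with 2 called lower, 2 higher and a median log2 ratio of -0.04. These counts are near the background of 18.0% lower and 17.2% higher. PDK4, a kinase that restrains pyruvate oxidation, had -1.94 ± 0.54 (SD, n = 3; limma adjusted p = 0.00343). CYP19A1, the aromatase that makes estradiol, had -1.43 ± 0.42 (adjusted p = 0.00448). SDC1, a cell-surface proteoglycan, had 1.64, and FBP1, an enzyme of gluconeogenesis, had 0.73. FBP1 passed the threshold on 5 of 6 arrays with 0 h RNA, and with a filter on both times it was untested, which left 1 gene called higher. The other CYP19A1 probes had smaller ratios of -0.13 and -0.51, and the other PDK4 probes -0.13 and -0.54.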

How the data were processed

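The authors deposited raw spot intensity (mean, median and local background, linear scale) for each channel, per the file headers, with a mark for ignored spots (11 to 69 per array, left out). They also deposited log2 ratios (Cy5 over Cy3, normalized) as a matrix and as the series value table, which held equal values and served as alternatives. The scanner software, the criterion for ignored spots and the authors' normalization were not stated in the sources used. Direction follows the dyes in the labels, and scale and direction of the matrix follow from its correlation with the ratios computed here (r = 0.980 to 0.990 across probes of an array; medians -0.0186 to 0.00676).

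Spot means less local background were corrected with normexp (offset 50, fitted on spots not ignored) and normalized by loess within arrays, with control spots at weight 0, in limma 3.58.1 under R 4.3.3. The 2 arrays of each swap were then averaged (n = 3). Pairing is built into the array: each compared both times of 1 replicate. Probes above background on every array at 0 h or at 6 h were tested (20831 of 43794). A gene was its brightest tested probe. Ratios were tested against 0 with lmFit and eBayes (two-sided, Benjamini-Hochberg over 9217 genes, threshold 0.05), a procedure tested on simulated data. The simulation gave all probes the same noise and no scanner ceiling, so it does not cover the spread of EGR1 or the saturation of NR4A1. Levels are log2 intensities scaled by Aquantile after loess, and summed levels add them on the linear scale.

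The platform annotation gave exactly 1 symbol to 21790 probes, and all other probes stay unnamed. Of 15229 symbols, 14114 were current in the RefSeq table for ARS-UCD2.0, 982 were updated through synonyms and 133 kept. No coordinates are printed, because the files name no genome build. The genes of interest, the lists and the tests were chosen with earlier results of these data known. Named genes are those of interest, the 4 with the smallest p of each list, and the 3 nearest to each tested gene of interest. Cell-type markers, and genes said to be named or chosen by their values, stand outside this rule. Alternatives covered background correction, normalization, filter, saturation, dye orientation, the dye swap as a random block, variance moderation and each replicate left out.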

Additional observations from a re-analysis of the deposited data

How the results depend on the processing

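With 18 alternatives, 2 of them (spot medians, and normexp without subtracting local background) chosen after seeing the data, NR4A1 kept its direction and call in all 18 (log2 ratio -2.52 to -1.75), and EGR1 kept its direction in 18 and its call in 16 (-3.71 to -1.87). EGR1 lost its call without the brightness filter (-2.78, limma adjusted p = 0.0624) and without replicate 2. Leaving out each replicate in turn gave EGR1 -3.71 to -1.87, NR4A1 -2.29 to -2.05, NR4A2 -0.46 to -0.27 and NAB2 -0.00088 to 0.0492. NR4A2 passed in 2 of 17 alternatives: on arrays with 6 h RNA in Cy5 (-0.51) and with arrays fitted one by one and the replicate as a random block (-0.35). With 6 h RNA in Cy3 alone it was -0.20 (limma adjusted p = 0.316). The random block had a correlation of -0.49 within a replicate, which lowers the p-values of that fit. NAB2 turned to -0.0443 with spot medians, at adjusted p = 0.836, and to -0.00088 without replicate 2. The stricter filter, above background at both times, left NR4A2 and NAB2 untested.

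Of the tested genes of interest, 1 was called in place of 2 without the filter, and 1 to 2 when a replicate was left out. Over all genes, 1743 were called without replicate 2, 2009 without replicate 3 and 3216 without replicate 1, in place of 3241. Among partners and corepressors, 1 was called in place of 0 with the authors' matrix, the value table, the mean of probes, 6 h RNA in Cy3 and normexp without local background, 2 with the random block and with an intensity trend, and 0 to 3 when a replicate was left out. Among inputs, 5 were called in place of 3 with either dye orientation alone and with the random block, and 2 to 7 when a replicate was left out. The early genes, EGR targets and NR4A targets stayed within 1.5 times their counts in 18 alternatives. The cause of these shifts was not tested.

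The neighbours of NAB2 changed sign near 0. NDUFA6 had 0.0345 with 6 h RNA in Cy3, 0.0077 with spot medians and -0.0492 to 0.0213 when a replicate was left out. ADAMTS4 had -0.0014 with median centring, -0.0015 in both authors' tables, -0.0481 with 6 h RNA in Cy5 and -0.0149 to 0.0227 when a replicate was left out. DIPK2B had -0.0037 with normexp fitted on all spots, -0.0042 in both authors' tables, -0.0484 with 6 h RNA in Cy5, -0.0426 with spot medians and -0.0134 to 0.0234 when a replicate was left out. A slide or scan block was not run, because the columns used give neither. Signal near background limits EGR3, EGR4, NR4A2, NR4A3 and NAB2.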
